A study of Homo sapiens with 6 samples.

Results

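Proteoglycans are proteins that carry long sulfated sugar chains, and 10 genes that encode their core proteins were followed in SUM159 cells with TβRIII knockdown and in control cells. They were CSPG4, VCAN, ACAN and SRGN, whose proteins carry chondroitin sulfate, DCN, BGN, LUM and PRELP of the small leucine-rich family, and HSPG2 and AGRN, which encode secreted carriers of heparan sulfate and served as a contrast. Each gene was taken from the transcript clusters of the deposited table that name it as their only gene symbol, a transcript cluster being the group of probes that measures a gene on the array. All 10 members were found, with 1 transcript cluster each, among 18276 genes measured this way. RefSeq places CSPG4 and ACAN on chromosome 15, VCAN on 5, SRGN on 10, DCN and LUM on 12, BGN on X, and PRELP, HSPG2 and AGRN on 1.

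SUM159, an established line of human breast cancer cells, served the study as a model of the mesenchymal stem-like (MSL) subtype of triple-negative breast cancer. The cells carried a lentiviral shRNA against TGFBR3, the gene of TβRIII (TβRIII-KD, labelled TGFBR3KD), or were labelled control, and both grew embedded in matrigel as three-dimensional cultures, with day 6 in the labels and no other treatment. RNA from 3 TβRIII-KD and 3 control samples was hybridized to Affymetrix Human Gene arrays. The knockdown line is 1 puromycin-selected population made with 1 shRNA clone, and what the control line carried is not given in the labels. For its immunoblots the paper describes SUM159 control cells as stably expressing a control vector, which it does not name. Separate cultures are not stated for the 3 arrays of a group, so a p-value here speaks only of how far these samples varied, which may be a technical spread.

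Chondroitin and dermatan sulfate chains are built on serines of the core protein from a short linkage sugar sequence that they share with heparan sulfate, and sulfotransferases then set which proteins the chains can hold. The large members such as versican and aggrecan bind hyaluronan and fill the space between cells, while the small leucine-rich members bind collagen fibrils and, for decorin and biglycan, TGF-β itself. Proteoglycans of these kinds are abundant in the stroma of breast tumors, where they are mostly made by fibroblasts. TβRIII, also called betaglycan, is a membrane proteoglycan too and presents TGF-β ligands to the signaling receptors.

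All values are log2 signals, so a difference of 1 is a doubling. A gene was called changed where limma, a linear model fitted over all 22148 transcript clusters, gave an adjusted p under 0.05 together with a log2 fold change beyond 0.5 in either direction, with fold changes written as TβRIII-KD over control. TGFBR3 itself had log2 signals of 9.72, 10.01 and 10.16 on the TβRIII-KD arrays, against 10.81, 10.89 and 10.56 on the control arrays. All TβRIII-KD arrays lay below all control arrays, with a log2 fold change of -0.79 (SE 0.13 with adjusted p = 0.0145 by limma). That call was lost without TβRIII-KD replicate 2 (adjusted p = 0.0625), control replicate 1 (0.0770) or control replicate 2 (0.0554). The array medians lay between 7.67 and 7.71, while the first principal component (49.2% of the variance) separated the groups and the second (21.9%) set TβRIII-KD replicate 3 off from the rest. Of 7 markers of mesenchymal breast cancer lines, all 7 lay above the median transcript cluster, VIM averaging 13.00 in TβRIII-KD and 13.07 in control, whereas of 8 hormone receptor and luminal markers only ERBB2 did. Of 8 leukocyte markers, 2 lay above the median transcript cluster, and PTPRC, which was not among the 2, averaged 4.40 in TβRIII-KD and 4.25 in control.

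CSPG4 rose in TβRIII-KD cells and was the 1 member past the cutoff. The other 9 members were not called, and 0 fell past the cutoff. Over all transcript clusters 0.777% were called higher and 1.49% lower. HSPG2 was the other member whose groups did not overlap, making 2 of 10, and 20.7% of all transcript clusters had groups that did not overlap in either direction. The mean was higher in TβRIII-KD for 8 of the 10 members, beside 54.7% of all transcript clusters, and for BGN, PRELP and AGRN among the 8 the sign turned when 1 array was left out. The median log2 fold change of the members was 0.13, against 0.01 over all transcript clusters, and their median absolute log2 fold change was 0.17, against 0.09. The spread between replicates was also larger for the members, with a median pooled SD of 0.18 against 0.11. The members were chosen with earlier results of these data known, so these comparisons are description only.

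**Figure D1:**
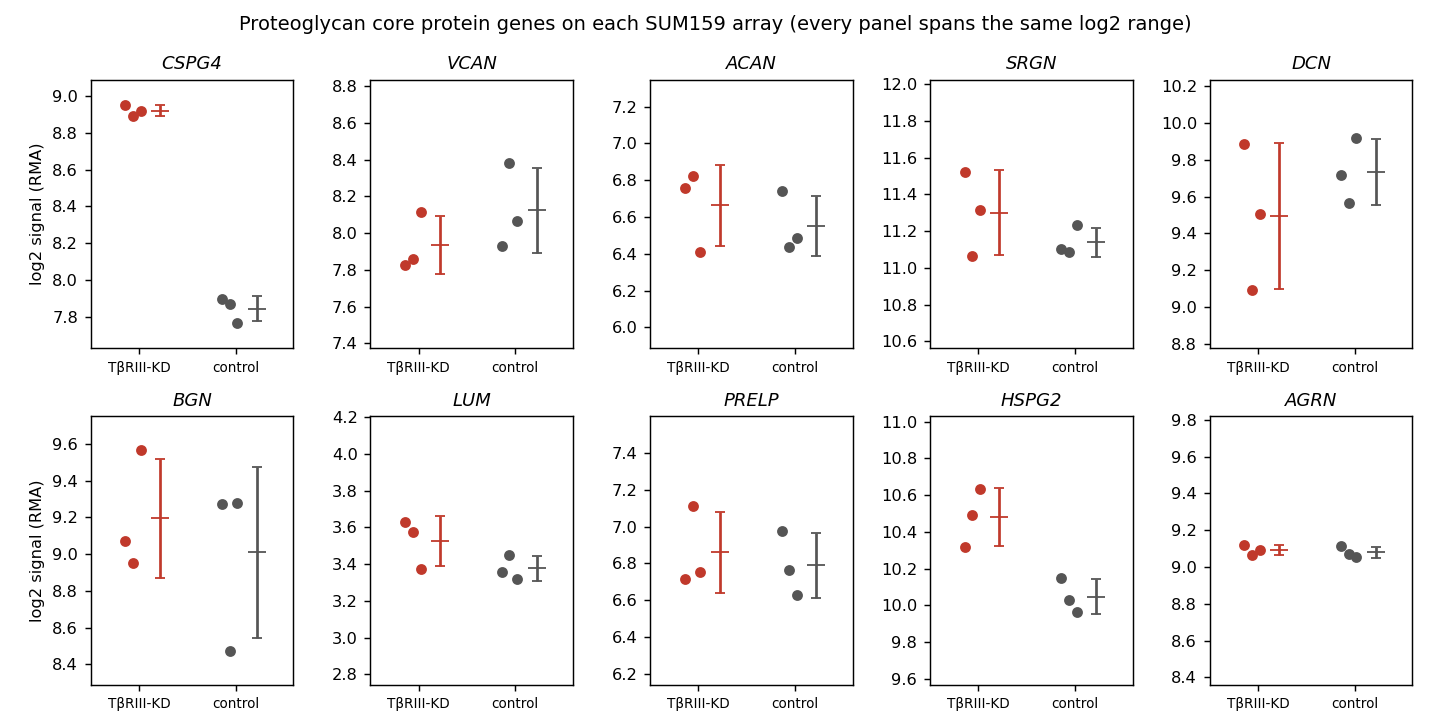
RMA signal (log2) of the 10 proteoglycan core protein genes by array (1 dot each), TβRIII-KD in red on the left of each panel and control in grey on the right, each with its mean ± SD (n = 3) drawn to the right of the dots. All panels span the same log2 range, and the groups are apart for CSPG4 (TβRIII-KD from 8.89 to 8.95, control from 7.77 to 7.90) and HSPG2 (TβRIII-KD from 10.32 to 10.63, control from 9.96 to 10.15).

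CSPG4 encodes a large membrane-spanning chondroitin sulfate proteoglycan, also known as NG2, that binds type VI collagen and is best known from pericytes, glial precursors and melanoma cells. Its log2 signal was 8.95, 8.89 and 8.92 on the TβRIII-KD arrays, against 7.90, 7.87 and 7.77 on the control arrays. The groups were separated by 1.00, the distance between the lowest TβRIII-KD and the highest control array, and the arrays within each group lay close together (means of 8.92 ± 0.03 in TβRIII-KD and 7.84 ± 0.07 in control, SD, n = 3 each). The log2 fold change was 1.08 (SE 0.07, 95% confidence interval 0.91 to 1.24, adjusted p = 0.000206 by limma), which is 2.11-fold (1.88 to 2.36). The exact permutation test gave a two-sided p of 0.1, the smallest that 3 arrays against 3 allow. The call held under all 17 alternatives, with log2 fold changes between 1.04 and 1.10 and adjusted p-values up to 0.0320.

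The human genome holds pseudogenes that are near copies of CSPG4, so the values of such a copy are given beside those of CSPG4. CSPG4P5, which the array measures by 6 transcript clusters of which 3 held distinct values, had log2 fold changes between -0.05 and -0.01, and 0 of the 6 were called (lowest adjusted p = 0.822 by limma). Of the 4 nearest measured genes on chromosome 15, 0 were called. In RefSeq order, SNX33 and IMP3 before CSPG4 had log2 fold changes of -0.10 (SE 0.12) and -0.01 (SE 0.09), while CIMAP1C and DNM1P35 after it had 0.06 (SE 0.08) and 0.03 (SE 0.09). The part of a near copy or of the region in the CSPG4 values was not tested.

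The promoter of CSPG4 is shown because CSPG4 was the member that changed in cells that had less of a TGF-β co-receptor, and SMAD proteins, which carry TGF-β signals to DNA, bind the letters CAGAC, called the CAGA box. The RefSeq sequence (GRCh38.p14, chr15:75712799-75713098, minus strand, 250 bases before the start site and 50 from it on) is printed 5′ to 3′ with each CAGAC or its reverse complement GTCTG in capitals.
CSPG4: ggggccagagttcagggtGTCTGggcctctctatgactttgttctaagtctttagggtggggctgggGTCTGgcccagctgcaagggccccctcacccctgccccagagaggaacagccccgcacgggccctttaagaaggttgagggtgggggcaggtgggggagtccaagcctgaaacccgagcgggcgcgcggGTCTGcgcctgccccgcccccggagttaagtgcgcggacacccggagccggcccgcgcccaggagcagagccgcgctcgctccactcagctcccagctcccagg
It held 3 matches, all GTCTG, whose first bases lay at -232, -183 and -54 counted from 0 at the start site. Of 35116 RefSeq promoters of the same length, 45.3% held at least 1 match on either strand and 2.86% held 3 or more. It also held 1 GC box at -41 (GGGCGG or CCGCCC, in 45% of promoters on either strand) and no TATAAA or TTTATA (11.5% of promoters). A match of letters is a description of the sequence, and binding was not measured. The paper reported that TGF-β reporter assays, CAGA-luc among them, and qPCR of TGF-β target genes showed no effect of the knockdown on this signaling. Those reporter assays used cells on culture plates with or without added TGF-β, whereas the arrays measured three-dimensional cultures without added ligand. The part of TGF-β signaling in the CSPG4 values was not tested here.

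The genes whose signal ran most alike to CSPG4 over the 6 arrays were RAPGEF1, DENND2B, KCNT2, PTK2B and TULP3, with Pearson correlations between 0.994 and 0.995. The 6 points are shared by all genes and fall into the compared groups, and no test was made of the likeness. KCNT2, a potassium channel gene, had log2 signals of 7.56, 7.54 and 7.55 on the TβRIII-KD arrays, against 6.59, 6.46 and 6.25 on the control arrays. Its log2 fold change of 1.12 (SE 0.09) was close in size to that of CSPG4, whereas RAPGEF1, which had the highest correlation, had a log2 fold change of 0.28 (SE 0.07).

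Among the other chondroitin sulfate members no change was called. Versican, the product of VCAN, is a hyaluronan-binding proteoglycan of loose matrix. On the log2 scale VCAN gave 7.83, 7.86 and 8.11 on the TβRIII-KD arrays, against 7.93, 8.38 and 8.06 on the control arrays. The groups overlapped, with control replicate 2 the highest array, and the log2 fold change was -0.19 (SE 0.13, interval -0.48 to 0.10, adjusted p = 0.548 by limma).

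Aggrecan, encoded by ACAN, is the hyaluronan-binding proteoglycan of cartilage. The TβRIII-KD arrays read 6.76, 6.82 and 6.41 and the control arrays 6.74, 6.43 and 6.48. High and low arrays occurred in both groups, and the log2 fold change was 0.11 (SE 0.13, interval -0.18 to 0.40, adjusted p = 0.747 by limma).

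SRGN encodes serglycin, the proteoglycan of secretory granules, best known from blood cells. Its log2 signals were 11.52, 11.06 and 11.31 on the TβRIII-KD arrays, against 11.10, 11.09 and 11.23 on the control arrays. TβRIII-KD replicate 1 was the highest array and TβRIII-KD replicate 2 the lowest, so the control arrays lay inside the TβRIII-KD range. SRGN had a difference of 0.16 in log2 signal (SE 0.12, interval -0.10 to 0.43, adjusted p = 0.582 by limma).

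None of the 4 small leucine-rich members was called. Decorin, the product of DCN, coats collagen fibrils and binds TGF-β. The log2 signals of DCN were 9.89, 9.09 and 9.50 on the TβRIII-KD arrays, against 9.72, 9.56 and 9.92 on the control arrays. TβRIII-KD replicate 1 was nearly as high as the highest control array, while TβRIII-KD replicate 2 was the lowest of all. The log2 fold change was -0.24 (SE 0.18, interval -0.66 to 0.18, adjusted p = 0.604 by limma), and it was -0.04 without TβRIII-KD replicate 2.

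Biglycan, encoded by BGN, is the closest relative of decorin and in soluble form binds the receptors TLR2 and TLR4. It read 9.07, 8.95 and 9.56 on the TβRIII-KD arrays and 9.27, 8.47 and 9.28 on the control arrays. Control replicate 2 stood below the other arrays, and the pooled SD of 0.40 was larger than that of 99.2% of all transcript clusters. The log2 fold change was 0.19 (SE 0.23, interval -0.35 to 0.72, adjusted p = 0.771 by limma), and without control replicate 2 its sign turned (-0.08). DCN also varied between replicates more than most, with a pooled SD of 0.31, larger than that of 97.5% of transcript clusters.

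LUM and PRELP encode lumican, a keratan sulfate carrier of the cornea and other collagen-rich tissue, and a leucine-rich protein that binds basement membrane and collagen. LUM had log2 signals of 3.63, 3.58 and 3.37 on the TβRIII-KD arrays, against 3.36, 3.45 and 3.32 on the control arrays. These overlapped and were far below the median transcript cluster (7.70), and signal over background was not analysed here. For LUM the log2 fold change was 0.15 (SE 0.09, interval -0.05 to 0.35, adjusted p = 0.493 by limma). PRELP had 6.71, 7.11 and 6.75 on the TβRIII-KD arrays, against 6.98, 6.77 and 6.63 on the control arrays. The ranges overlapped, and the log2 fold change of 0.07 (SE 0.13, interval -0.22 to 0.37, adjusted p = 0.854 by limma) turned negative without TβRIII-KD replicate 2 (-0.06) or control replicate 3 (-0.01).

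Neither of the secreted heparan sulfate carriers was called. HSPG2 encodes perlecan, a large proteoglycan of basement membranes. Its log2 signals were 10.32, 10.49 and 10.63 on the TβRIII-KD arrays, against 10.15, 10.03 and 9.96 on the control arrays. All TβRIII-KD arrays lay above all control arrays, the closest pair being 0.17 apart, yet the gene did not pass the cutoff. The log2 fold change was 0.43 (SE 0.10, interval 0.21 to 0.65, unadjusted p = 0.00185, adjusted p = 0.0526 by limma), and the exact permutation p was 0.1. HSPG2 passed the cutoff only when TβRIII-KD replicate 1 was left out (log2 fold change 0.51, adjusted p = 0.0378), and over the 17 alternatives its adjusted p lay between 0.0343 and 0.240.

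AGRN encodes agrin, a basement membrane proteoglycan that organizes acetylcholine receptors at the synapse between nerve and muscle. The TβRIII-KD arrays read 9.12, 9.06 and 9.09 and the control arrays 9.11, 9.07 and 9.06. The 6 values lay within 0.06 of each other, and the log2 fold change was 0.01 (SE 0.07, interval -0.14 to 0.16, adjusted p = 0.956 by limma). The pooled SD of AGRN was 0.03, and 1.44% of transcript clusters had a lower one.

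The HSPG2 promoter is shown beside that of CSPG4 because these were the members whose groups did not overlap. It comes from the same RefSeq table (GRCh38.p14, chr1:21937261-21937560, minus strand) and is printed 5′ to 3′ with CAGAC or GTCTG in capitals.
HSPG2: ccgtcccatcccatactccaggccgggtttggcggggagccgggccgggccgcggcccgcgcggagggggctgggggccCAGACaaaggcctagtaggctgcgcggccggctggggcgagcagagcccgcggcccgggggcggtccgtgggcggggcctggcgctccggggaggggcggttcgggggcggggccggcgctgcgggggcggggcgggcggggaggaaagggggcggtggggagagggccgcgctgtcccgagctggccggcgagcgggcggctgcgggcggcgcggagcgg
It held 1 match, CAGAC at -171, and 10 GC boxes, 8 of them before the start site, where 15.8% of all promoters held 3 or more GC boxes. Its GC content was 83.3%, against 69.3% in the CSPG4 promoter. The table held promoters of 6 of the 10 members. CAGA matches numbered 1 in ACAN and 1 in PRELP, while VCAN and BGN had 0.

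**Figure D2:**
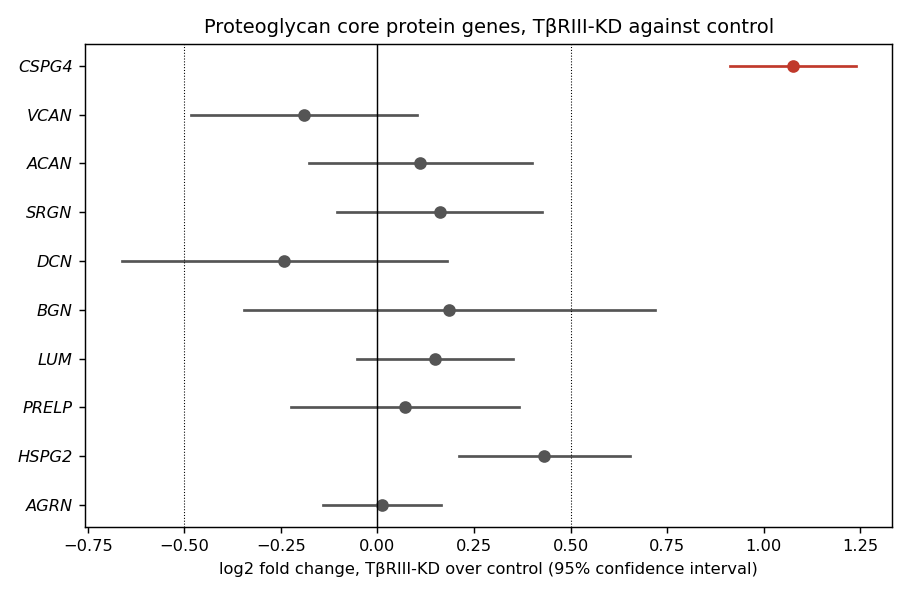
Log2 fold change of each member, TβRIII-KD over control, with limma's 95% confidence interval (n = 3 arrays in each group), CSPG4 in red as the gene past the cutoff and dotted lines at the fold limit of 0.5 in both directions. The interval of CSPG4 (0.91 to 1.24) lies above the limit, and those of DCN, BGN and HSPG2 cross it on one side.

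The intervals show what these arrays could have missed. For VCAN, ACAN, SRGN, LUM, PRELP and AGRN both ends lay inside 0.5 in either direction. Of these, ACAN, LUM and PRELP lay below the median transcript cluster, LUM far below it, and signal over background was not analysed. Narrow intervals of such dim genes may not bound a change in RNA. For DCN a fall of up to 0.66 and for BGN a rise of up to 0.72 on the log2 scale remained within the interval. The exact permutation p-values of the 8 members other than CSPG4 and HSPG2 lay between 0.2 and 0.7. With each array left out in turn, CSPG4 ranged from 1.04 to 1.10, DCN from -0.44 to -0.04 and BGN from -0.08 to 0.32.

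**Figure D3:**
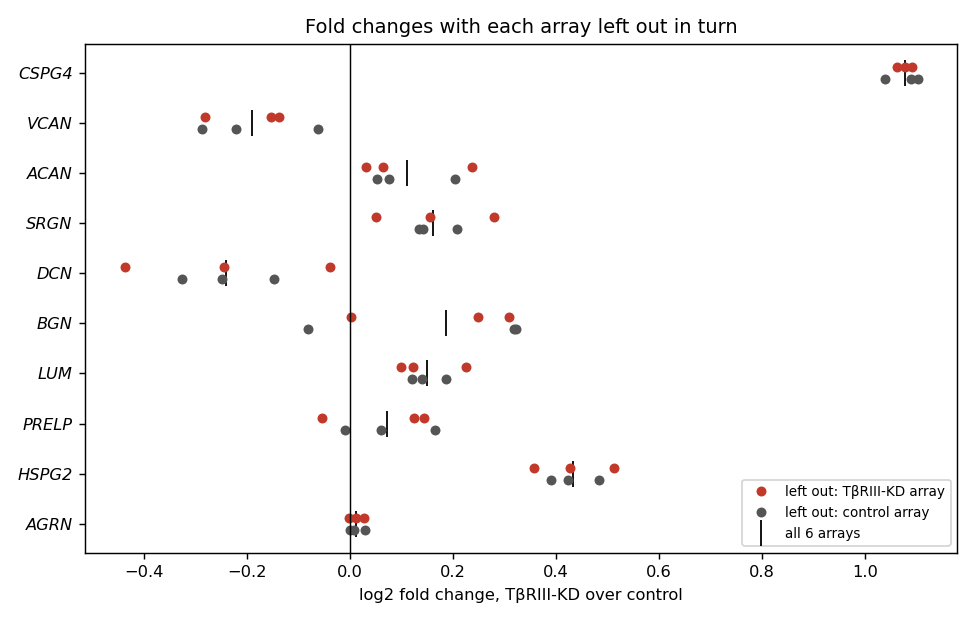
Log2 fold change of each member, TβRIII-KD over control, when each array in turn was left out (red, a TβRIII-KD array left out; grey, a control array left out), with a black tick for all 6 arrays. CSPG4 stays between 1.04 and 1.10, while the dots of BGN, PRELP and AGRN fall on both sides of 0.

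Several cell types known for these proteoglycans have markers of their own, and 0 markers of the 4 lists examined were called. Since CSPG4 marks pericytes, 8 pericyte and smooth muscle markers were summed on each array, and the log2 of the sum was 11.60 to 11.84 in TβRIII-KD and 11.81 to 11.91 in control. Log2 fold changes of these markers had a median of -0.09 and ran from -0.54 to 0.24, and 4 of the 8 lay above the median transcript cluster. The sum for 8 fibroblast and stroma markers was 11.46 to 11.69 in TβRIII-KD and 11.80 to 11.93 in control, ranges that did not overlap, with 2 of the 8 above the median transcript cluster. The median log2 fold change of these 8 genes was -0.09, and the lowest was that of FAP. FAP, a fibroblast protease, had a log2 fold change of -0.68 (SE 0.15 with adjusted p = 0.0534 by limma). For 8 chondrocyte markers the sum was 10.35 to 10.47 in TβRIII-KD and 10.18 to 10.29 in control, also without overlap. The median log2 fold change of these 8 genes was 0.01, with the lowest at -0.08 and the highest, that of SOX9, at 0.39. SOX9, the transcription factor that drives aggrecan in cartilage, averaged 8.42 in TβRIII-KD and 8.03 in control, and was not called (SE of the difference 0.09, adjusted p = 0.0503 by limma). The 8 leukocyte markers gave 10.63 to 10.88 in TβRIII-KD and 10.77 to 11.05 in control. Signals were summed before taking log2, so the brightest markers weigh most in each sum. Gene by gene, groups did not overlap for 3 pericyte, 3 fibroblast, 2 chondrocyte and 0 leukocyte markers of 8 each. Over all transcript clusters that share was 20.7%. The lists stand for genes a single cell line can also express, an array signal has no true zero by which a marker could be called absent, and the part of these shifts in the members' values was not tested.

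Of 139 further genes listed for making, modifying, degrading or binding these proteoglycans, 131 were measured. TβRIII-KD cells had higher signals for 3 of them (2.29%) and lower signals for 8 (6.11%), beside 0.777% and 1.49% of all transcript clusters, and 120 were not called. Groups did not overlap for 39 (29.8%), beside 20.7% of all transcript clusters. Their median log2 fold change was -0.0049. The lists were chosen with earlier results of these data known, so these shares cannot show whether such genes changed more often than others.

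**Figure D4:**
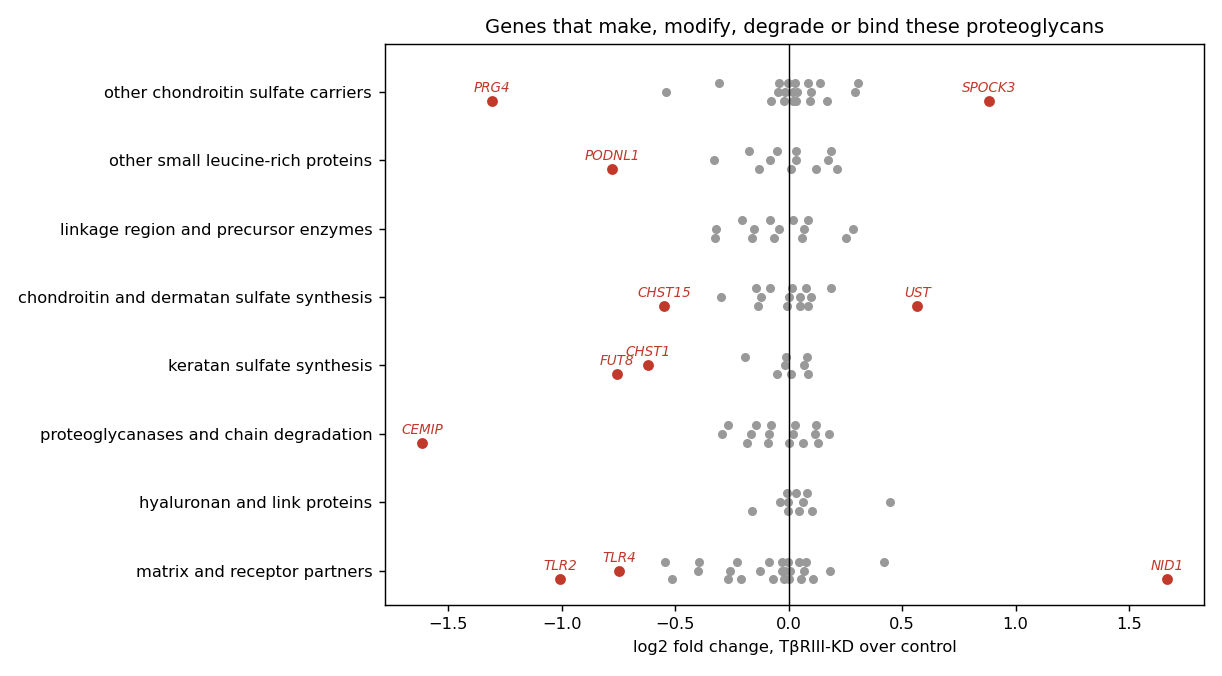
Log2 fold changes, TβRIII-KD over control, of 131 genes in 8 lists of proteoglycan biology, with 1 dot per gene and genes past the cutoff in red with their symbols. NID1 (1.67) and CEMIP (-1.61) lie farthest out, and no gene of the linkage region or hyaluronan lists is marked.

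Of 22 other carriers of chondroitin sulfate, 1 was higher in TβRIII-KD, 1 was lower and 20 were not called. SPOCK3 encodes testican-3, a secreted proteoglycan best known from brain. Its log2 signals were 6.64, 6.77 and 6.73 on the TβRIII-KD arrays, against 5.73, 6.05 and 5.71 on the control arrays, with all TβRIII-KD arrays higher. PRG4, the lubricin of joint fluid, went the other way with 5.81, 5.83 and 6.09 on the TβRIII-KD arrays, against 7.14, 6.98 and 7.54 on the control arrays. The log2 fold changes were 0.88 (SE 0.10, adjusted p = 0.00323 by limma) for SPOCK3 and -1.31 (SE 0.15, adjusted p = 0.00275) for PRG4. Both genes were dim, with means over the 6 arrays of 6.27 and 6.57, below the median transcript cluster (7.70). Next came APLP2, a relative of the amyloid precursor protein, at 0.30 (SE 0.07, adjusted p = 0.0550).

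Among 13 other small leucine-rich proteins, PODNL1 was lower in TβRIII-KD and the other 12 were not called. PODNL1, a relative of podocan, had log2 signals of 8.27, 8.30 and 8.28 on the TβRIII-KD arrays, against 8.95, 8.98 and 9.25 on the control arrays. The TβRIII-KD arrays were nearly equal and all below control, with a log2 fold change of -0.78 (SE 0.09 with adjusted p = 0.00355 by limma). PODN, podocan itself, had a log2 fold change of -0.33 (SE 0.09 with adjusted p = 0.111) and was not called.

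The enzymes and transporters that build the linkage region and supply sugar and sulfate precursors were measured for 14 of 14 genes, and 0 were called. SLC35D1, which brings nucleotide sugars for chondroitin sulfate into the endoplasmic reticulum, had the smallest p, with a log2 fold change of -0.32 (SE 0.08 with adjusted p = 0.0688 by limma). All 14 log2 fold changes lay between -0.32 and 0.28.

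Of 16 genes for chondroitin and dermatan sulfate synthesis, both called genes encode sulfotransferases and they moved in opposite directions. UST adds sulfate to the uronic acid of the chain. UST had log2 signals of 8.70, 9.08 and 8.88 on the TβRIII-KD arrays, against 8.29, 8.33 and 8.35 on the control arrays. CHST15, which makes the doubly sulfated galactosamine of chondroitin sulfate E, had 7.58, 7.36 and 7.64 on the TβRIII-KD arrays, against 8.00, 7.95 and 8.28 on the control arrays. The groups were apart for both genes, with log2 fold changes of 0.57 (SE 0.10, adjusted p = 0.0196 by limma) for UST and -0.55 (SE 0.11, adjusted p = 0.0359) for CHST15. Both calls were lost when single arrays were left out. UST was no longer called without TβRIII-KD replicate 2 or any 1 control array, nor was CHST15 without any 1 array other than TβRIII-KD replicate 3, and with arrays left out in turn the adjusted p reached 0.0973 for UST and 0.123 for CHST15. CHST14, which sulfates dermatan sulfate, had a log2 fold change of 0.19 (SE 0.07 with adjusted p = 0.263).

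Keratan sulfate, the chain of lumican, had 2 of its 10 synthesis genes lower in TβRIII-KD. CHST1 sulfates the galactose of the chain, and its log2 signals were 8.97, 8.76 and 9.21 on the TβRIII-KD arrays, against 9.68, 9.42 and 9.71 on the control arrays. FUT8 adds the core fucose of N-linked glycans, on which corneal keratan sulfate is built, and acts on many other glycoproteins as well. FUT8 had 8.70, 8.42 and 8.33 on the TβRIII-KD arrays, against 9.29, 9.14 and 9.31 on the control arrays. Both genes had all TβRIII-KD arrays below control, with log2 fold changes of -0.62 (SE 0.13, adjusted p = 0.0375 by limma) for CHST1 and -0.76 (SE 0.11, adjusted p = 0.00755) for FUT8. The call of CHST1 was lost without TβRIII-KD replicate 1 or 2 or control replicate 1 or 3 (adjusted p up to 0.155), and that of FUT8 held with each array left out. B4GALT4, a galactosyltransferase, had a log2 fold change of -0.19 (SE 0.09 with adjusted p = 0.340).

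**Figure D5:**
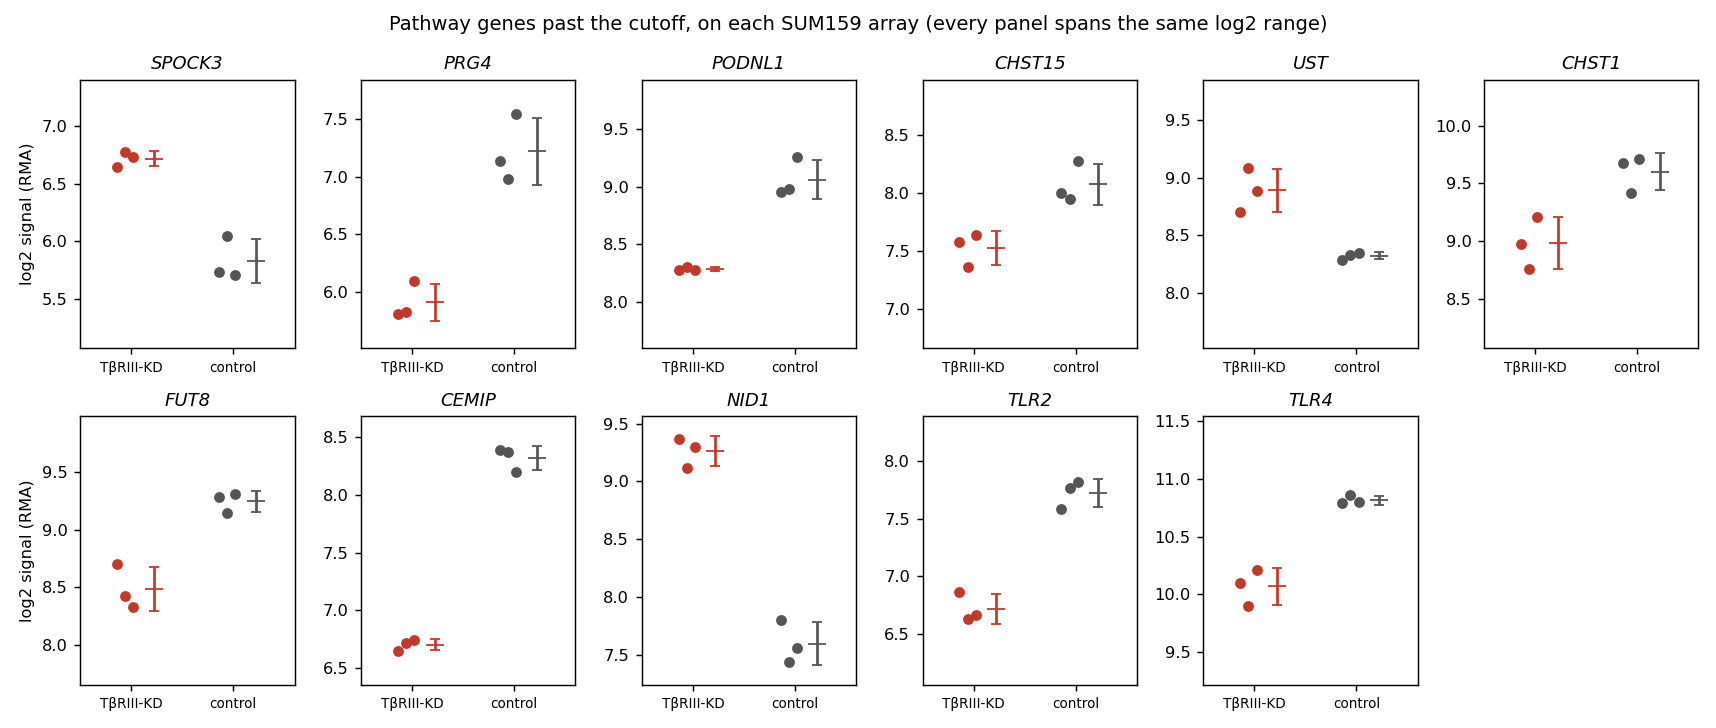
RMA signal (log2) of the 11 pathway genes past the cutoff by array, TβRIII-KD in red on the left of each panel and control in grey on the right, each with its mean ± SD (n = 3), and the same log2 range in all panels. SPOCK3, UST and NID1 are higher in TβRIII-KD and the other 8 are lower, and the arrays of the groups do not overlap in any panel.

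Among 17 proteoglycanases and chain-degrading genes, CEMIP was lower in TβRIII-KD and the other 16 were not called. CEMIP is known for hyaluronan breakdown and not for cutting proteoglycan cores. CEMIP had log2 signals of 6.65, 6.72 and 6.74 on the TβRIII-KD arrays, against 8.39, 8.37 and 8.20 on the control arrays. The groups were far apart, with a log2 fold change of -1.61 (SE 0.08 with adjusted p = 5.71e-05 by limma) that kept its call under all of its 16 alternatives. ADAMTS1, which cleaves versican and aggrecan, had a log2 fold change of -0.27 (SE 0.11 with adjusted p = 0.304).

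None of 11 hyaluronan synthases, receptors and link proteins was called. Among the transcript clusters taken, HMMR had the smallest p, with a log2 fold change of 0.45 (SE 0.20 with adjusted p = 0.342 by limma). HMMR encodes a hyaluronan receptor that also acts at the mitotic spindle. LAYN, of the same list, was measured by 2 transcript clusters that differed. The one taken had a log2 fold change of -0.04 (SE 0.10 with adjusted p = 0.911 by limma). The other, with a lower mean signal, had -0.38 (SE 0.10 with adjusted p = 0.101) and was not called either.

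Of 28 measured matrix and receptor partners of the members, 1 was higher in TβRIII-KD, 2 were lower and 25 were not called. NID1 encodes nidogen-1, the basement membrane glycoprotein that binds perlecan as well as laminin. Its log2 signals were 9.37, 9.12 and 9.30 on the TβRIII-KD arrays, against 7.80, 7.43 and 7.55 on the control arrays, with the lowest TβRIII-KD array far above the highest control array. The log2 fold change of NID1 was 1.67 (SE 0.11, adjusted p = 0.000206 by limma), beside 0.43 for HSPG2. TLR2 and TLR4, the innate immune receptors that soluble biglycan engages, were lower in TβRIII-KD. TLR2 had 6.86, 6.63 and 6.67 on the TβRIII-KD arrays, against 7.59, 7.77 and 7.82 on the control arrays. TLR4 had 10.10, 9.90 and 10.21 on the TβRIII-KD arrays, against 10.79, 10.86 and 10.80 on the control arrays. Both had log2 fold changes past the limit, -1.01 (SE 0.10, adjusted p = 0.00127) for TLR2 and -0.75 (SE 0.09, adjusted p = 0.00399) for TLR4, while BGN itself was not called. PDGFRA, a growth factor receptor linked to NG2 on precursor cells, had a log2 fold change of -0.40 (SE 0.10 with adjusted p = 0.0738) and was not called.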

How the data were processed

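RNA of SUM159 cells in three-dimensional culture was measured on 6 arrays, 3 of TβRIII-KD and 3 of control, grouped by their labels. The authors deposited log2 signals from RMA (background correction, quantile normalization and 1 summary value per transcript cluster), run with the oligo package in R 3.0.1. RMA equalizes the distributions of the arrays, so a shift shared by all genes cannot be seen. The version of oligo is not given in the sources used here. Precision is limited by how many arrays there are.

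The comparison used limma 3.58.1 in R 4.3.3 (empirical Bayes moderation without trend, two-sided), with p-values adjusted by Benjamini-Hochberg over the 22148 transcript clusters and 95% intervals from the moderated SE. Where a gene had several transcript clusters, the one with the highest mean was taken. For single genes an exact permutation test of the 6 arrays was added. The procedure was tested on simulated data. Replicate numbers were not taken to pair arrays in the main fit. Deviations from the group means correlated at -0.06, 0.11 and 0.31 for same-numbered arrays and between -0.39 and 0.34 for differently numbered ones. With 3 arrays in a group these values cannot settle whether the numbers mark pairs.

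The members and the gene lists were chosen with earlier results of these data known. The genes named are the members, TGFBR3, in each list the genes past the cutoff and the one with the smallest p among the rest, and the 5 genes most alike to CSPG4 by Pearson correlation. The near copy CSPG4P5, the neighbours, LAYN and the markers named were picked after their values were seen. Promoters come from a RefSeq table of GRCh38.p14. The 17 alternatives tried were trended moderation, robust moderation, weighted arrays, the unpaired test of the study's statistics section (the methods' t-test), filters on dim or ambiguous transcript clusters, centred arrays, a second quantile normalization, the replicate number as a block, leaving out each array, and other fold limits.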

Additional observations from a re-analysis of the deposited data

How the results depend on the processing

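Over 17 alternatives the members gave 167 values, of which 162 kept their direction and their side of the cutoff. The 5 others came from leaving out 1 array. HSPG2 passed the cutoff without TβRIII-KD replicate 1, which makes 1 to 2 members called higher over the arrays left out, and the sign turned for AGRN without TβRIII-KD replicate 1 (-0.0021), for PRELP without TβRIII-KD replicate 2 (-0.056) or control replicate 3 (-0.011) and for BGN without control replicate 2 (-0.081), their ranges over the arrays left out reaching 0.029 for AGRN, 0.16 for PRELP and 0.32 for BGN. With the methods' t-test and Benjamini-Hochberg adjustment, 1 transcript cluster was higher and 16 were lower past the cutoff, against 172 and 329 by limma, with 0 pathway genes higher and 1 lower, and TGFBR3 (-0.79) lost its call (adjusted p = 0.198). That test called 2956 transcript clusters at an unadjusted p under 0.05 and 25 after adjustment, CSPG4 among them. Over transcript clusters at or above the median signal, 114 were higher and 5 pathway genes lower. That set leaves out ACAN, LUM and PRELP and, of the called pathway genes, SPOCK3, PRG4, CEMIP and TLR2. The called pathway genes that stayed in the set kept their calls. Without a fold limit 275 were higher. A limit of 1 left 37 higher and 103 lower, 1 pathway gene higher and 3 lower, and TGFBR3 (-0.79) short of it. With each array left out in turn, 88 to 251 transcript clusters were higher and 215 to 387 lower, fewest higher without control replicate 1 (88), TβRIII-KD replicate 2 (104) and control replicate 3 (110), while TGFBR3 ranged from -0.89 to -0.67. Pathway genes numbered 2 to 4 higher and 6 to 10 lower. A replicate block gave 229 higher and 387 lower, with 3 pathway genes higher and 10 lower, and it changed no call among the members (CSPG4 adjusted p = 0.000333). Averaging over several transcript clusters of a gene gave no other value, since every member had 1. Apart from genes that a filter left out, the cause of these changes was not tested.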
